A study of Homo sapiens with 6 samples.

Results

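The genes described here are 10 that set the pace of the G1 phase of the cell cycle: the D-type cyclins CCND1 and CCND3, their kinases CDK4 and CDK6, the E-type cyclins CCNE1 and CCNE2, their kinase CDK2, its activating phosphatase CDC25A, the inhibitor CDKN1B and the retinoblastoma gene RB1. They were chosen by symbol, and each of the 10 matched a single row among the 61806 genes of the deposited table. RNA-seq was performed on HCT116, an established human colorectal carcinoma line, in 2 groups of 3 libraries. The si-NC cells received a control short interfering RNA and are labelled wildtype, and the si-STRIP2 cells received one against STRIP2 and are labelled as a STRIP2 knockdown. Both groups shared the line and the culture medium. The number of short interfering RNA sequences, the time after transfection and the source of each library (separate cultures or not) are not given in the sources used here, so the p-values measure the spread between these libraries, which may be technical. STRIP2 is part of STRIPAK, an assembly that joins a phosphatase to kinases.

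In G1, mitogen signals raise the D-type cyclins, which bind CDK4 or CDK6 and begin to phosphorylate RB1. RB1 holds E2F transcription factors in check, and its phosphorylation frees them to transcribe genes of S phase, with CCNE1, CCNE2 and CDC25A among their known targets. Cyclin E with CDK2 phosphorylates RB1 further, CDC25A removes phosphates that restrain CDK2, and CDKN1B binds and inhibits cyclin E with CDK2. Much of this control acts on proteins and their phosphates, which RNA-seq does not measure. In bulk libraries, a change in the share of cells in each cycle phase cannot be told apart from a change in transcript level per cell.

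RefSeq windows on GRCh38.p14 were matched by symbol for 7 of the 10 genes, with 10 windows among them. CCND1 and CDK2 had none. The chromosome of CCNE2 was left out of the match, so CCNE2 was not searched. The bases just before the start are shown for CCNE1 and CDC25A, which rose most among the genes with a window, and for CDKN1B, which fell. RB1 also fell, and its window is not shown. Each run is 250 bases, 5′ to 3′ on the gene's strand and ending at the base before the RefSeq start. The CCNE1 run is chr19:29811741-29811990 on the plus strand, the CDC25A run is chr3:48188418-48188667 on the minus strand, and the CDKN1B run is chr12:12717118-12717367 on the plus strand. Capitals mark the words TTTGGCGC, TTTGCCGC, TTTCGCGC and TTTCCCGC of E2F factors, their last 7 bases, the AP-1 word TGANTCA and the SP1 word GGGCGG, each searched on both strands. The 7-base words lie inside the 8-base words.
CCNE1: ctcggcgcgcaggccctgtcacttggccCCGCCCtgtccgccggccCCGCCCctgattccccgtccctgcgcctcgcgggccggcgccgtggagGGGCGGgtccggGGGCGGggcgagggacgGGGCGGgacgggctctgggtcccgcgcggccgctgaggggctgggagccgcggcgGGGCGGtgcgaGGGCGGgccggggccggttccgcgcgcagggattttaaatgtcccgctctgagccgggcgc
CDC25A: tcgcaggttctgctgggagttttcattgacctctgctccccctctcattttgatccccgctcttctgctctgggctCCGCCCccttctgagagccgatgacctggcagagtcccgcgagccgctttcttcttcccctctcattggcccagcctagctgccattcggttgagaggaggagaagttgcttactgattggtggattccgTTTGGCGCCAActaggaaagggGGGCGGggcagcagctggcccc
CDKN1B: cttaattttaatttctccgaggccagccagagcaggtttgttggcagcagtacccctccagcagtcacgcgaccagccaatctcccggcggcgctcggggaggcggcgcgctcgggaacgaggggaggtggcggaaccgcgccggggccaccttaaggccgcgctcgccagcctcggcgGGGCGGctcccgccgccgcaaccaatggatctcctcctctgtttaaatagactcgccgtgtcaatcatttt

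Of the 10 windows, that of CDC25A alone held an 8-base E2F word, 44 bases before the start. There TTTGGCGC and the reverse complement of a 7-base word overlap. Of 35116 RefSeq windows of this length, 2.79% held an 8-base E2F word and 10.9% a 7-base one. The CCNE1 run held 7 copies of GGGCGG or its complement, CDC25A held 2 and CDKN1B held 1, and 42.6% of all windows held at least 1. Among the windows not shown, those of CCND3 held 5, 2 and 0, those of CDK6 3 and 0, that of CDK4 3 and that of RB1 0. The AP-1 word was absent from the 3 runs, and present in the RB1 window and in 6.57% of all windows. A match is a run of letters and not evidence of binding. The CDKN1B start used by RefSeq lies 31870 bases inside the gene as the deposited table bounds it. The RB1 start lies 172706 bases inside, that of CDK4 3703, those of CCND3 1669, 108549 and 111152, and a CDK6 start 2614. For CDKN1B, RB1, CDK4 and CCND3, the bases before the gene start of the deposited table were therefore not searched.

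Total counts ranged from 17184963 to 21721218 per library, and the counts of the 10 genes from 205 (CCND3) to 16034 (CCND1) in a library. The share of counts from mitochondrially encoded genes was 4.88% to 8.88% in si-NC and 5.73% to 6.30% in si-STRIP2, so the groups overlapped. STRIP2 itself was at 3.19, 3.77 and 3.81 FPKM in si-NC and at 2.71, 2.53 and 2.58 FPKM in si-STRIP2, so 72.6% of the control mean remained (a log2 fold change of -0.46 at an edgeR adjusted p of 1.62e-05). FPKM is the fragment count scaled by exon length and library total. Of 8 colorectal epithelial markers, 5 were at 1 FPKM or more, EPCAM, KRT8, KRT18, KRT19 and CDH1, while CDX1 was at 0 and VIL1 and LGALS4 averaged 0.023 and 0.033 FPKM in si-NC. The summed level of the 8 markers was 688.5 to 718.1 FPKM in si-NC and 664.2 to 687.6 FPKM in si-STRIP2, so the groups did not overlap. The sum hides unlike changes in the means. CDH1 went from 36.6 FPKM in si-NC to 24.2 in si-STRIP2, KRT18 from 194.9 to 172.1 and EPCAM from 205.7 to 190.7. KRT8 went from 129.7 to 125.9 FPKM, whereas KRT19 rose from 140.0 to 163.8. The summed levels of the 4 leukocyte markers and the 3 endothelial markers were at most 0.38 and 0.10 FPKM in any library. Of 4 fibroblast markers, COL1A1 alone was above 1 FPKM.

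All 10 genes passed the filter on low counts, and all 10 were called in the comparison of si-STRIP2 with si-NC by edgeR's quasi-likelihood test (adjusted p under 0.05 over 15687 genes). That call was made for 54.8% of all genes tested. After si-STRIP2, 7 of the 10 were higher and 3 lower, against 27.8% of tested genes called higher and 27.0% called lower. The 7 were CCNE1, CDC25A, CCNE2, CDK2, CCND3, CDK4 and CDK6, and the 3 were CCND1, CDKN1B and RB1. For 8 of the 10 the FPKM ranges of si-NC and si-STRIP2 were separate, as they were for 58.6% of tested genes, and CCND3 and CDK6 were the exceptions. The changes were mostly small: the median absolute log2 fold change was 0.22 for the 10 genes, 0.26 for all genes tested and 0.38 for called genes. For 6 of the 10 it was under 1.2-fold. The median signed log2 fold change was 0.22 for the 10 genes and 0.014 for all tested.

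**Figure D1:**
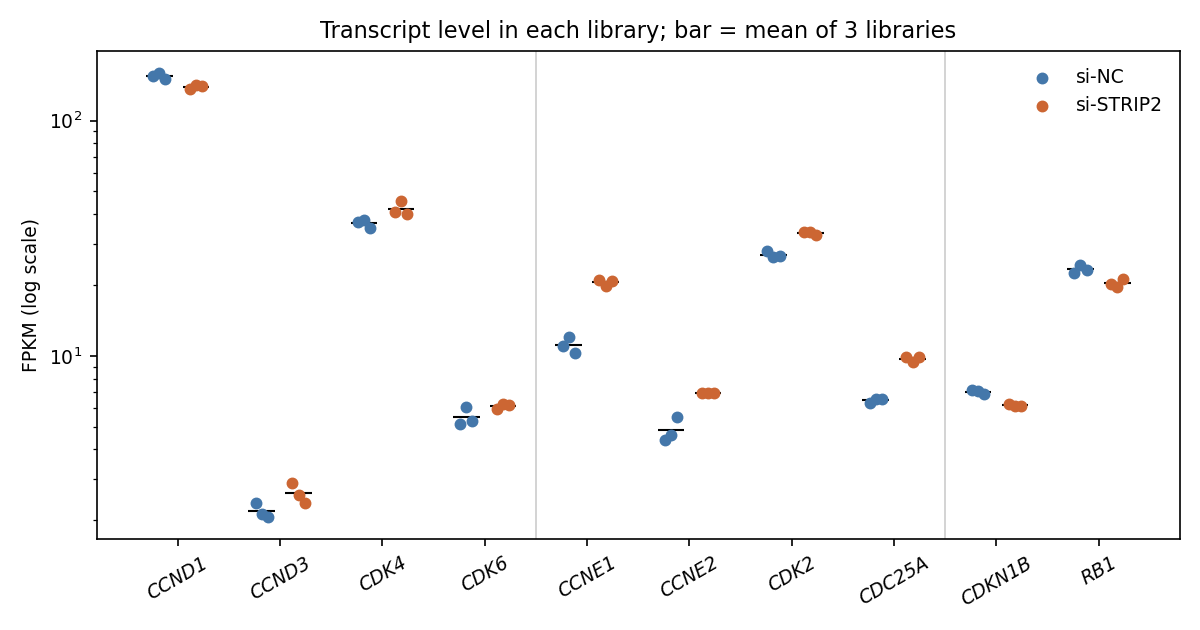
Level of each of the 10 genes in each library, in FPKM on a log axis. Each point is 1 library and each black bar the mean of 3; CCNE1 shows the widest gap between si-NC (10.31 to 12.02) and si-STRIP2 (19.83 to 20.97).

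CCNE1, the gene of cyclin E1, had the largest change of the 10 (ENSG00000105173, chromosome 19, 29811991 to 29824312, plus strand). It was at 10.96, 12.02 and 10.31 FPKM in si-NC and at 20.97, 19.83 and 20.81 FPKM in si-STRIP2. Every si-STRIP2 library was far above every si-NC library. The mean went from 11.1 ± 0.863 to 20.54 ± 0.617 FPKM (SD, n = 3), a 1.85-fold rise, or 0.89 ± 0.059 (standard error) as a log2 fold change, at an edgeR adjusted p of 1.34e-14. Of 4359 genes called higher, 367 rose further than CCNE1.

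CCNE2, the gene of cyclin E2, the second E-type cyclin, was at 4.38, 4.62 and 5.47 FPKM in si-NC and at 6.98, 6.97 and 6.92 FPKM in si-STRIP2 (ENSG00000175305, chromosome 8, 94879770 to 94896678, minus strand). The si-STRIP2 libraries lay close together and above the control libraries, of which si-NC replicate 3 was the highest. CCNE2 rose 1.45-fold (log2 fold change 0.53 ± 0.074 SE, edgeR adjusted p = 2.00e-07). INTS8, on the opposite strand, held 435% as many counts as CCNE2, shares 37.05% of the exonic bases of CCNE2 in GENCODE 29, and was itself called higher (log2 fold change 0.24, edgeR adjusted p = 6.29e-06). NDUFAF6, also on the opposite strand, held 86.8% as many counts and shares no exonic base with it in GENCODE 29, where its model is smaller (6406 exonic bases) than the deposited one (12371). Whether reads were counted by strand is not given in the sources used here, so the reads of CCNE2 and INTS8 may not be separable, and the part of INTS8 in the CCNE2 value was not tested.

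CDC25A, the phosphatase that activates CDK2, was at 6.31, 6.55 and 6.56 FPKM in si-NC and at 9.89, 9.40 and 9.86 FPKM in si-STRIP2 (ENSG00000164045, chromosome 3, 48157146 to 48188417, minus strand). The spread within each group was small beside the gap between them. CDC25A rose 1.5-fold (log2 fold change 0.58 ± 0.060 SE, edgeR adjusted p = 3.96e-10). This gene carries the E2F word shown above. CDK2, the kinase that CDC25A acts on, was at 27.80, 26.37 and 26.63 FPKM in si-NC and at 33.72, 33.60 and 32.70 FPKM in si-STRIP2 (ENSG00000123374, chromosome 12, 55966781 to 55972789, plus strand). Its groups did not overlap, and it rose by less than its cyclins and its phosphatase. This was a 1.23-fold change (log2 fold change 0.30 ± 0.042 SE, edgeR adjusted p = 1.78e-07).

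Among the D-type cyclins, CCND1 fell and CCND3 rose. CCND1, the gene of cyclin D1, was at 155.05, 159.65 and 150.95 FPKM in si-NC and at 136.79, 141.67 and 140.49 FPKM in si-STRIP2 (ENSG00000110092, chromosome 11, 69641156 to 69654474, plus strand). The groups did not overlap, and the gap between them was about as wide as the range of the control libraries. Its mean in si-STRIP2 was 89.97% of the control mean, a log2 fold change of -0.16 ± 0.042 (SE) at an edgeR adjusted p of 0.00221. Of 4240 genes called lower, 3918 fell further. In FPKM, however, its fall of 15.6 was the largest difference of the 10 genes, ahead of the rise of 9.44 for CCNE1.

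CCND3, the gene of cyclin D3, was at 2.37, 2.12 and 2.07 FPKM in si-NC and at 2.89, 2.57 and 2.36 FPKM in si-STRIP2 (ENSG00000112576, chromosome 6, 41934934 to 42050357, minus strand). The lowest si-STRIP2 library was just under the highest control library. In edgeR it rose by 0.25 ± 0.093 (SE) on the log2 scale (adjusted p = 0.0251). With 205 to 313 counts per library, this is the least precise value of the 10. Its call was lost by DESeq2 (adjusted p = 0.0823), by limma on log2(FPKM + 1) (adjusted p = 0.0732), and in edgeR without si-STRIP2 replicate 1 (adjusted p = 0.173, log2 fold change 0.17), si-NC replicate 2 (adjusted p = 0.0806) or si-NC replicate 3 (adjusted p = 0.0832).

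CDK4, the more abundant kinase of the D-type cyclins here, was at 37.11, 37.92 and 35.08 FPKM in si-NC and at 40.89, 45.74 and 40.22 FPKM in si-STRIP2 (ENSG00000135446, chromosome 12, 57747727 to 57756013, minus strand). Its groups did not overlap, and si-STRIP2 replicate 2 was the highest library. CDK4 rose by 0.20 ± 0.046 (SE) on the log2 scale (edgeR adjusted p = 0.000428). TSPAN31, on the opposite strand, shares 43.2% of the exonic bases of CDK4 and held 15.6% as many counts, and it was called lower (log2 fold change -0.20, edgeR adjusted p = 0.0279). As for CCNE2, the reads of CDK4 and TSPAN31 may not be separable, and the part of TSPAN31 in the CDK4 value was not tested. MARCHF9, also on that strand, held 12.8% as many counts and shares no exonic base with CDK4 in GENCODE 29.

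CDK6, the other kinase of the D-type cyclins, was at 5.14, 6.05 and 5.30 FPKM in si-NC and at 5.96, 6.21 and 6.20 FPKM in si-STRIP2 (ENSG00000105810, chromosome 7, 92604921 to 92836573, minus strand). The lowest si-STRIP2 library was under si-NC replicate 2, so the groups overlapped. The edgeR estimate was a rise of 0.16 ± 0.050 (SE) on the log2 scale (adjusted p = 0.00948). The call was lost without si-NC replicate 1 (log2 fold change 0.11, edgeR adjusted p = 0.104) and by limma on log2(FPKM + 1) (adjusted p = 0.0903).

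The inhibitor and the substrate were both lower in si-STRIP2 cells. CDKN1B was at 7.16, 7.08 and 6.86 FPKM in si-NC and at 6.26, 6.14 and 6.13 FPKM in si-STRIP2 (ENSG00000111276, chromosome 12, 12685498 to 12722369, plus strand). The libraries of each group lay close together and the groups did not overlap. It fell by 0.19 ± 0.047 (SE) on the log2 scale (edgeR adjusted p = 0.000757). RB1 was at 22.43, 24.39 and 23.08 FPKM in si-NC and at 20.21, 19.64 and 21.29 FPKM in si-STRIP2 (ENSG00000139687, chromosome 13, 48303744 to 48599436, plus strand). Its groups did not overlap, but the gap between them was smaller than the range within either. RB1 fell by 0.20 ± 0.043 (SE) on the log2 scale (edgeR adjusted p = 0.000229).

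The calls of the small changes depended on the method. Against a null of a change of up to 1.2-fold (glmTreat in edgeR), CCNE1, CDC25A and CCNE2 were called. With TPM, which rescales each library to its summed FPKM, limma called CCNE1, CCNE2, CDC25A and CDK2. The log2 fold change of CCND1 was -0.15 by limma on TPM (adjusted p = 0.186) and -0.16 by glmTreat, and that of RB1 was -0.18 (limma adjusted p = 0.0735) and -0.20. No member changed direction under any of the 18 alternatives run.

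**Figure D2:**
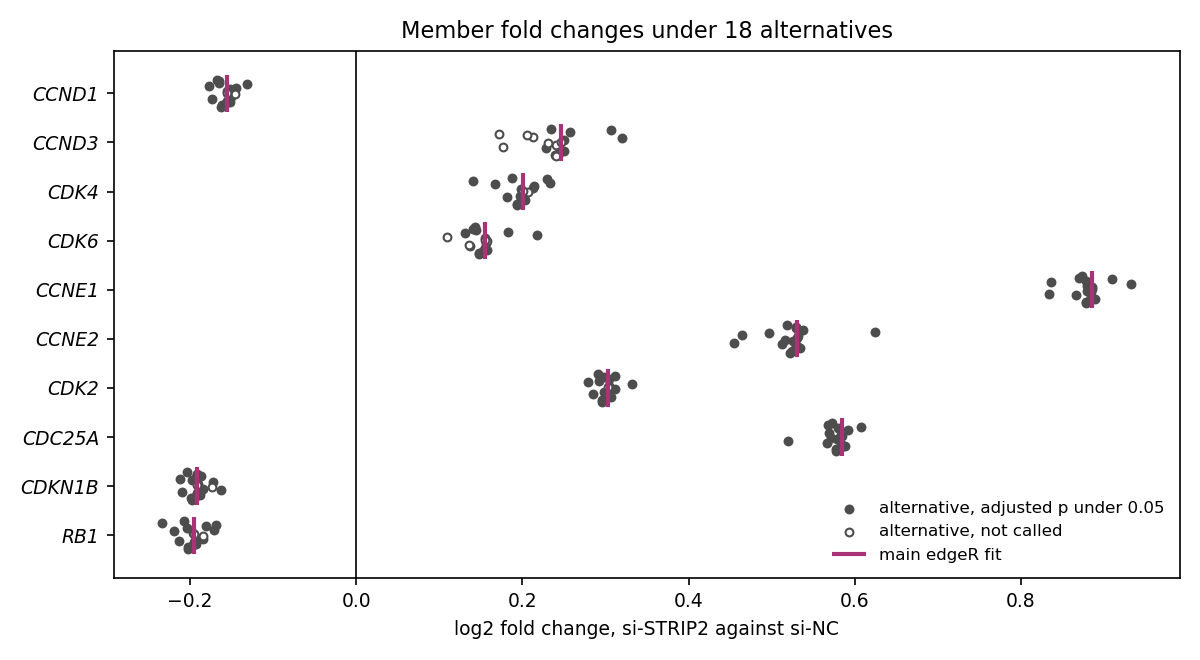
Log2 fold change of each gene in the edgeR fit (bar) and under 18 alternatives (points, open where the gene was not called). CCNE1 stays between 0.83 and 0.93, and the open points are most frequent for CCND3 (8 of 18) and CDK6 (5 of 18).

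Per length, CCND1 was by far the most abundant of the 10 transcripts in both groups. In si-NC the order of mean FPKM was CCND1 (155), CDK4 (36.7), CDK2 (26.9), RB1 (23.3), CCNE1 (11.1), CDKN1B (7.03), CDC25A (6.47), CDK6 (5.50), CCNE2 (4.82) and CCND3 (2.19). The values of CDK6 and CCNE2 overlapped between libraries, and each other pair of neighbours was apart in all 3 libraries. In TPM the order was the same, but the si-NC values of CDK2 and RB1, of CDKN1B and CDC25A, and of CDC25A and CDK6 overlapped as well. In si-STRIP2 the order was CCND1 (139.7), CDK4 (42.3), CDK2 (33.3), CCNE1 (20.5), RB1 (20.4), CDC25A (9.72), CCNE2 (6.96), CDKN1B (6.18), CDK6 (6.12) and CCND3 (2.61). There the values of CCNE1 overlapped those of RB1, and those of CDKN1B overlapped those of CDK6. CCNE1 thus went from less than the level of RB1 to a level not apart from it, and CDC25A and CCNE2 moved above CDKN1B. The level of CDKN1B is per 9255 exonic bases of the deposited model, against 2811 in GENCODE 29. Its place in the order and the level of ratios with it therefore depend on that model. The length as a divisor does not enter its fold change, but the model also sets which reads were counted. The effect of this on the fold change was not tested.

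The make-up of the 4 cyclin transcripts moved towards the E-type, with CCND1 still most of the sum. CCND1 made up 89.75%, 89.48% and 89.43% of their summed FPKM in si-NC and 81.6%, 82.8% and 82.4% in si-STRIP2. CCNE1 went from 6.40% ± 0.318 to 12.1% ± 0.466 of the sum (SD, n = 3). CCNE2 went from 2.79% ± 0.392 to 4.10% ± 0.0573, and CCND3 from 1.26% ± 0.0969 to 1.54% ± 0.173 (SD, n = 3). CCND2, the remaining D-type cyclin, averaged 0.0033 FPKM in si-NC and 0.0067 FPKM in si-STRIP2 and was too low to be tested.

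Ratios of 2 transcripts within a library do not depend on how libraries are scaled, and 7 were compared with exact 2-sided permutation tests, in which 3 against 3 libraries can give no p under 0.1. The summed E-type cyclins per summed D-type cyclins were 0.0974, 0.103 and 0.103 in si-NC and 0.20, 0.186 and 0.194 in si-STRIP2. The groups were far apart, with a 1.91-fold higher ratio in si-STRIP2 (log2 difference 0.93, standard error 0.041, exact p = 0.1, 0.117 adjusted over the 7 ratios). CCNE1 per CDKN1B, the cyclin per inhibitor of the same kinase, was 1.53, 1.70 and 1.5 in si-NC and 3.35, 3.23 and 3.39 in si-STRIP2. This ratio was 2.11-fold higher (log2 difference 1.08, standard error 0.059, exact p = 0.1, adjusted 0.117).

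CDKN1B per CDK2 went from 0.261 ± 0.00630 to 0.185 ± 0.00238 (SD, n = 3), a log2 difference of -0.50 with no overlap between groups (exact p = 0.1, adjusted 0.117). CDC25A per CDK2 averaged 0.241 ± 0.0118 under si-NC against 0.292 ± 0.0110 under si-STRIP2 (SD, n = 3), a log2 difference of 0.28, again with no overlap (exact p = 0.1, adjusted 0.117). Of the paralogues, CCND3 per CCND1 went from 0.0141 ± 0.00106 to 0.0187 ± 0.00222 (SD, n = 3; log2 difference 0.40, exact p = 0.1, adjusted 0.117). CCNE2 per CCNE1 was 0.40, 0.384 and 0.531 in si-NC and 0.333, 0.351 and 0.333 in si-STRIP2. The groups did not overlap, but si-NC replicate 3 stood above the other controls. The log2 difference of -0.36 (standard error 0.149, exact p = 0.1, adjusted 0.117) became -0.21 without it. CDK6 per CDK4 averaged 0.150 ± 0.0106 under si-NC against 0.145 ± 0.00920 under si-STRIP2 (SD, n = 3), with overlapping groups and a log2 difference of -0.043 with a standard error of 0.080 (exact p = 0.7, adjusted 0.7). It had no stable sign: leaving out si-NC replicate 1 gave -0.098 and si-STRIP2 replicate 3 gave -0.087, whereas leaving out si-NC replicate 2 gave 0.0037 and si-STRIP2 replicate 2 gave 0.0042.

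**Figure D3:**
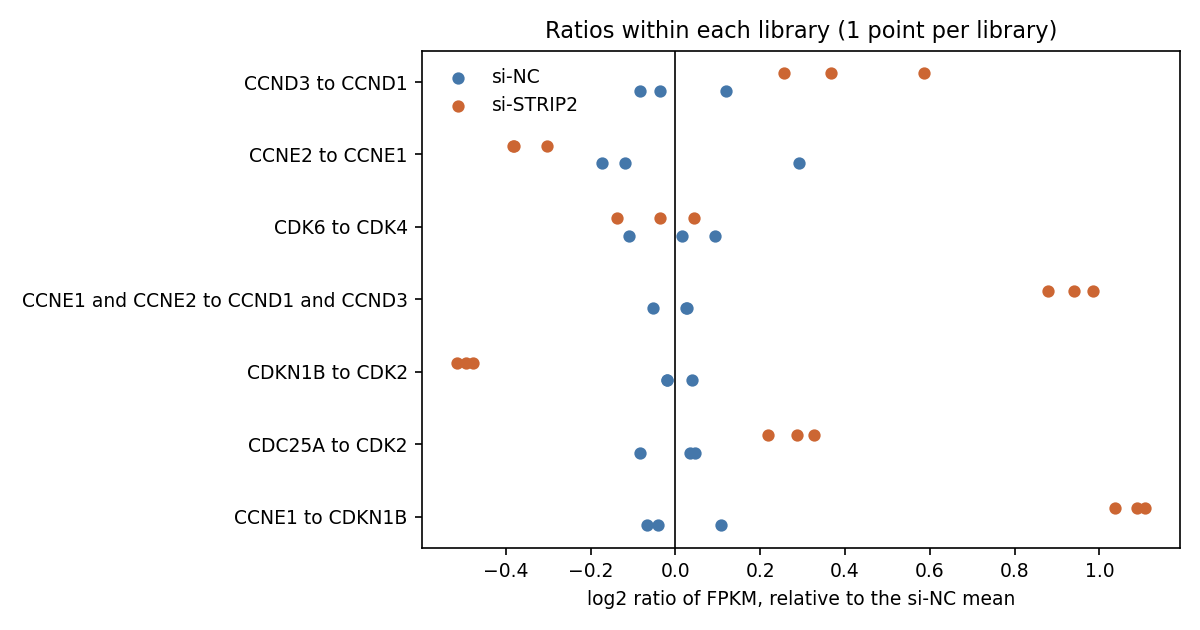
The 7 ratios of FPKM within each library, on a log2 scale relative to the mean of the si-NC libraries (1 point per library). The E-type to D-type ratio and the CCNE1 to CDKN1B ratio lie 0.93 and 1.08 higher in si-STRIP2, and the CDK6 to CDK4 ratio overlaps.

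Beyond the 10 genes, 62 others of the pathway were read from the same fit, in 7 lists. Of the 60 that passed the filter, 34 were called higher and 9 lower, with a median log2 fold change of 0.23, against 0.014 for all genes tested. The shares called over all genes tested were 27.8% higher and 27.0% lower. Of 20 S-phase genes known as E2F targets, 17 rose and 2 fell, with a median log2 fold change of 0.61. These are 17 of the 34 rises. MCM5, a subunit of the replicative helicase, went from 7.34 ± 0.162 to 21.02 ± 0.665 FPKM, and UNG, which removes uracil from DNA, from 7.83 ± 0.481 to 21.9 ± 0.499 FPKM (SD, n = 3). ACACB overlaps UNG on the same strand, held 15.0% as many counts and was not called (log2 fold change -0.048, edgeR adjusted p = 0.703). The 2 that fell were RRM2, a subunit of ribonucleotide reductase (log2 fold change -0.18, edgeR adjusted p = 0.000595), and CDC6, an origin licensing factor (-0.17, edgeR adjusted p = 0.000667). Of the 10 E2F and DP factors, 3 were called higher and 3 lower, close to the shares over all genes. TFDP1 (log2 fold change 0.32) and E2F1 (0.26) led the rises, and E2F6 (-0.42) and TFDP2 (-0.41) the falls.

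Of the 7 CDK inhibitors, 2 were called higher and 3 lower, with a median log2 fold change of -0.24. With so few genes, these counts are read as no result about the list beside the 27.8% and 27.0% over all genes. CDKN1A, which like CDKN1B inhibits CDK2 complexes, fell from 43.3 ± 0.822 to 28.4 ± 1.79 FPKM (SD, n = 3), a log2 fold change of -0.61 (edgeR adjusted p = 1.29e-13). CDKN2B, an inhibitor of CDK4 and CDK6, fell from 5.05 ± 0.203 to 2.88 ± 0.166 FPKM (log2 fold change -0.81, edgeR adjusted p = 5.66e-10). CDKN2C, an inhibitor of the same kinases, rose (log2 fold change 0.54), and so did CDKN2A (0.32). The CDKN2A value is for the whole gene and does not tell its transcripts apart. CDKN2B-AS1, on the opposite strand, held 20.2% as many counts as CDKN2A, shares 7.88% of its exonic bases and was called higher (log2 fold change 0.74, edgeR adjusted p = 0.000255), and its part in the CDKN2A value was not tested. It also overlaps CDKN2B, with 24.5% as many counts, and its deposited gene model has 20420 exonic bases against 8024 in GENCODE 29, so the exons shared as counted are not known.

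In the list of turnover of G1 proteins, 5 of 10 rose and 0 fell by edgeR (0 fell by DESeq2, and 3 were lower at an unadjusted p under 0.05), while 54.8% of all genes tested were called in either direction. SKP2, the ubiquitin ligase subunit that marks CDKN1B for degradation, went from 1.65 ± 0.0586 to 4.16 ± 0.133 FPKM (SD, n = 3), 2.51-fold higher (log2 fold change 1.33 ± 0.053 SE, edgeR adjusted p = 1.39e-20). NADK2, on the opposite strand, held 118% as many counts as SKP2 and was called higher (log2 fold change 0.20, edgeR adjusted p = 0.000751). The deposited model of SKP2 has 17377 exonic bases against 3837 in GENCODE 29, so whether the counted models share exons is not known. USP28, a deubiquitinase, rose by 0.60 on the log2 scale (edgeR adjusted p = 2.92e-10). Among the other cyclins, kinases and phosphatases, 7 of the 9 genes tested were called higher, against 27.8% of all genes tested. CCNA2, the S-phase cyclin (log2 fold change 0.62), and CDC25B, a relative of CDC25A (0.49), led these rises. CCNA2 is also among the S-phase genes above and was counted in each list. EXOSC9, on the opposite strand, overlaps CCNA2 in 9.08% of the exonic bases of CCNA2 and held 82.3% as many counts. It was called higher as well (log2 fold change 0.21, edgeR adjusted p = 4.98e-05), and its part in the CCNA2 value was not tested.

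Of the CDK-activating kinase, CCNH was lower (log2 fold change -0.14, edgeR adjusted p = 0.0192) and MNAT1 higher (0.14, edgeR adjusted p = 0.0487). The call of MNAT1 was lost under 14 of 18 alternatives and that of CCNH under 5. RASA1 shares 12.7% of the exonic bases of CCNH, held 123% as many counts and was called higher (log2 fold change 0.16, edgeR adjusted p = 0.0053). RBL1 and RBL2, the relatives of RB1, had log2 fold changes of 0.073 and -0.046 with standard errors of 0.051 and 0.048. Of these 2, 0 were called by edgeR, 0 by DESeq2 and 0 had an unadjusted p under 0.05.

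**Figure D4:**
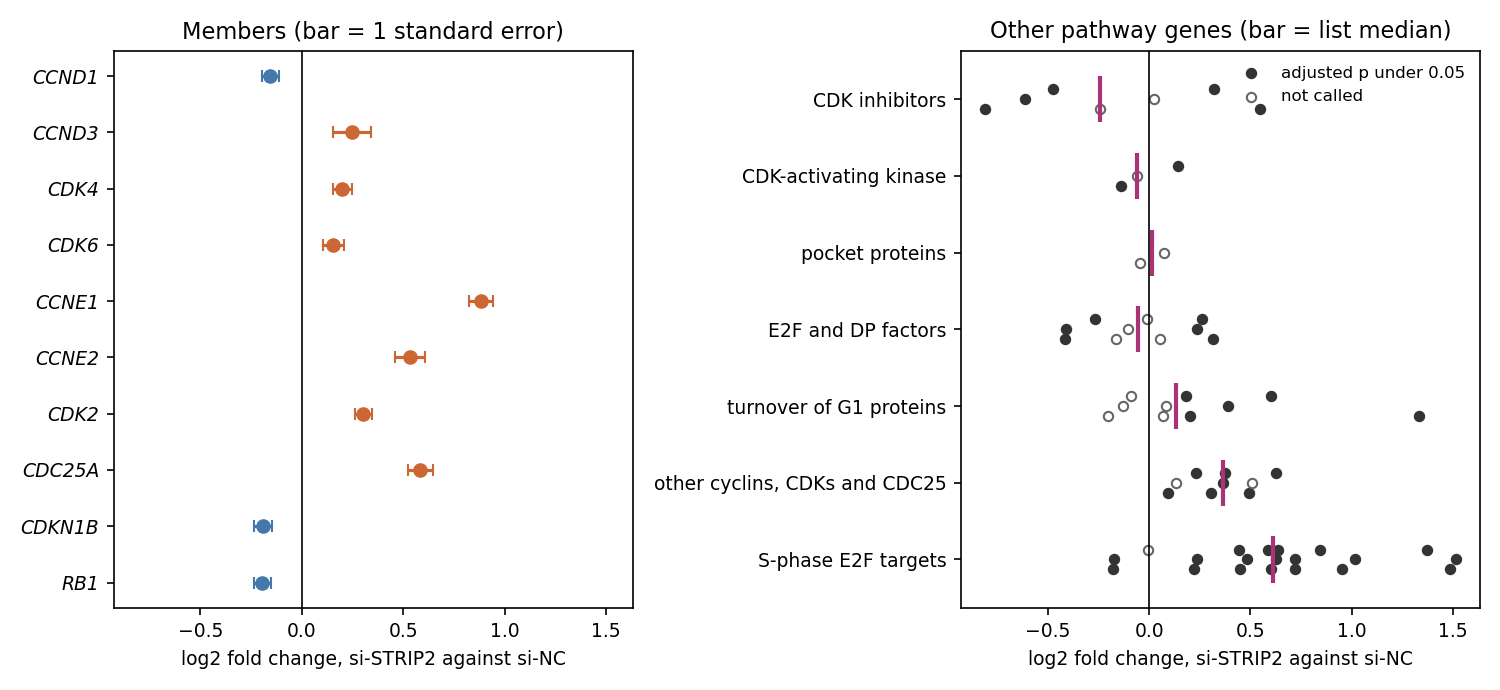
Log2 fold changes of si-STRIP2 against si-NC: left, the 10 genes with 1 standard error; right, 60 other genes of the pathway in 7 lists, filled where called by edgeR, with a bar at each list's median. The S-phase list lies furthest to the right, with a median of 0.61, and the CDK inhibitors lie on both sides of 0. CCNA2 is drawn in the S-phase list and again among the other cyclins.

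Log2 CPM is the log of the counts of tested genes, scaled to their library total after TMM adjustment. In log2 CPM, SH3KBP1, TMEM123 and SLC35F2 were the genes that followed CCND1 most closely over the 6 libraries (Pearson r 0.9981, 0.9981 and 0.9979). For CCNE2 they were DDX55, HS1BP3 and AMH, at 0.9974, 0.9971 and 0.9969. These 6 points share 1 group difference, and 1220 genes reached an r above 0.95 with CCND1 and 614 with CCNE2, so the ranking is a description only.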

How the data were processed

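Poly(A) RNA libraries were made with a directional kit, per the labels' protocols. The submitters' processing notes list bcl2fastq 2.20.0.422, FastQC 0.10.1, cutadapt 1.9.1, HISAT2 2.2.1, HTSeq 0.6.1 and the build GRCh38.p13. The use of strand and the annotation release are not given in the sources used here. The authors deposited raw counts for 61806 genes. The deposited FPKM values equalled the count scaled by exonic size and column total to within 0.005.

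Here, edgeR 4.0.16 (R 4.3.3) was run on the counts of the 6 libraries: filterByExpr (minimum count 10, 15687 genes), TMM, and a quasi-likelihood F test on group, 2-sided, Benjamini-Hochberg over all genes tested, called at an adjusted p under 0.05. Standard errors are the absolute log2 fold change over the square root of F. The FPKM values gave levels and ratios. Alternatives used DESeq2 1.42.0, limma 3.58.1, other scalings and filters, and omitted libraries. On simulated counts of 15474 genes with 200 changed, edgeR recovered 84.0% of 1.5-fold and 92.0% of 2-fold changes, 2.76% of calls were unchanged genes, and it called 0 genes, at the adjusted threshold, when none was changed. These simulated counts had far fewer changed genes than the 54.8% called here, a common dispersion for all genes and no changes smaller than 1.5-fold. The rates therefore do not describe the calls of smaller changes.

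The genes and lists were chosen with earlier results of these data known. The text names all 10 genes; per list, up to 2 called rises and 2 called falls of largest size at 1 FPKM or more; STRIP2; overlapping genes with at least 10% as many counts; and the 3 closest in pattern to CCND1 and CCNE2. Markers and untested or uncalled relatives named by their values (CCND2, RBL1, RBL2) were added after seeing them. Overlaps of exons are from GENCODE 29 on GRCh38.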

Additional observations from a re-analysis of the deposited data

How the results depend on the processing

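Results were recomputed under 17 listed alternatives and 1 added after seeing the data, in which mitochondrially encoded genes were left out of the scaling. The 10 calls became 4 (4 higher, 0 lower, with 1 lower at an unadjusted p under 0.05) by limma on log2(TPM + 1), where the cause was not tested. They became 3 (3 higher, 0 lower, and 0 lower unadjusted) by glmTreat against a 1.2-fold change, which asks for a larger change by construction. The 43 calls among other pathway genes became 27 (22 higher, 5 lower) by glmTreat. Under the other alternatives the 10 calls ranged from 8 to 10 and the 43 from 40 to 45, except 36 by limma on TPM. With 1 library left out in turn, 9 or 10 of the 10 genes were called. The median log2 fold change of all genes moved by at most 0.032. Whether replicate numbers pair the libraries is not given in the sources used here. Same-numbered libraries deviated from their group means with correlations of -0.0858, -0.0133 and -0.0718. Differently numbered libraries gave -0.0405 to 0.112. No shared replicate effect was seen, which cannot show that the libraries were made apart. With the replicate block, 10 of the 10 genes and 41 other pathway genes were called. In the block the E-type to D-type ratio gave a log2 difference of 0.93 (exact sign-flip p = 0.25, the smallest for 3 pairs). CCND3 (205 to 313 counts) is the gene most limited by depth among the 10, and CDK3 (9 to 19 counts) among the other pathway genes that were tested.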
